A study of Mus musculus with 8 samples.

Results

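The genes described here are 10 proteases of the lysosome, Ctsa, Ctsb, Ctsc, Ctsd, Ctsh, Ctsk, Ctsl, Ctss, Ctsz and Lgmn. They were chosen by symbol as 10 of the 27998 genes of the count matrices. The rule itself uses no measured value, but the choice was made with earlier results of these data known. Single mammary cells of 8 C57BL/6N mice were sequenced, 1 mouse per library and 2 mice at each of 4 stages: nulliparous (NP) mice of 8 weeks, pregnant mice at gestation day 14.5 (G), nursing mice at lactation day 6 (L), and mice whose pups had been weaned naturally 11 days before (PI). No allele was altered and no agent was given in any group, and the ages of the G, L and PI mice are not given in the sources used here. From vaginal smears the paper classed both NP mice and the second PI mouse as in estrus and the first PI mouse as in diestrus. The part of cycle stage in differences between NP and PI mice was not tested. Cells were freed by enzyme digestion and sorted as EpCAM positive after cells with CD31, CD45 or Ter119 had been gated out. The values count UMIs, random tags by which copies of 1 captured transcript are counted once, summed over the cells of 1 cluster or cell type in 1 mouse, and a level is in CPM, the usual scale on which every sum has the same total.

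Cathepsins are made as inactive precursors, carried to the lysosome by mannose 6-phosphate receptors and activated in its acid interior, where they degrade proteins that reach it by endocytosis or autophagy. In the mammary gland they are best known from the involution after weaning, when the epithelium that made milk is removed and the tissue between the ducts is remodelled. Ctsd is an aspartic protease. Ctsb, Ctsl, Ctsk and Ctss are cysteine endopeptidases, and of these Ctss trims the invariant chain of MHC class II while Ctsk degrades collagen. Ctsc, Ctsh and Ctsz shorten peptides from their ends, Ctsa is a serine carboxypeptidase that also protects lysosomal neuraminidase, and Lgmn cuts after asparagine and processes other cathepsins.

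In the GRCm38 annotation Ctsa lies at chr2:164832873-164841032 and Ctsz at chr2:174427493-174439039, and Ctsk at chr3:95499256-95509362 is next to Ctss at chr3:95526786-95556403. Ctsc lies at chr7:88278085-88310888, Ctsd at chr7:142375911-142388038 and Ctsh at chr9:90054152-90076089. Lgmn lies at chr12:102394084-102439813, Ctsl at chr13:64359337-64370890 and Ctsb at chr14:63122462-63145923. Ctsa, Ctsb, Ctsc, Ctsl and Ctsz overlap an annotated gene on the other strand and Ctsd, Ctsl and Ctss 1 on the same strand. Reads that a pair on the same strand shares make its counts less certain. For pairs on opposite strands this would hold only if reads were counted without regard to strand.

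Promoter windows of RefSeq (GRCm38.p6, 250 bases before to 50 after a transcript start) were at hand for 8 of the 10 genes, in 10 windows. Ctsb and Ctsh had no window. CACGTG, a palindrome that reads the same on both strands and is the core of the element bound by the lysosomal transcription factors of the Tfeb family, was present in 2349 of all 32851 windows (7.15%) and in windows of Ctsa, Ctsd, Ctsl and Lgmn. The longer form TCACGTG, searched on both strands and always containing CACGTG, was in 3.77% of all windows and in those of Ctsa, Ctsd and Lgmn. TTCNNNGAA, the form bound by Stat proteins, was in 8.30% of all windows and in that of Ctsc. The 4 windows with CACGTG are shown because these letters are what they share, with each match in capitals. They are Ctsa at chr2:164833523-164833822 (plus strand), Ctsd at chr7:142387778-142388077 (minus strand), Ctsl at chr13:64370471-64370770 (minus strand) and Lgmn at chr12:102439043-102439342 (minus strand).
Ctsa: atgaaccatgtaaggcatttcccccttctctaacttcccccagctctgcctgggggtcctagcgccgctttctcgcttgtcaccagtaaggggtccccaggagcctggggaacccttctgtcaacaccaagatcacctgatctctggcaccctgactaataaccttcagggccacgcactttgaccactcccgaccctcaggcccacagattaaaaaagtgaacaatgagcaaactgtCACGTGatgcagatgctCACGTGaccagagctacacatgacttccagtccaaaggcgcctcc
Ctsd: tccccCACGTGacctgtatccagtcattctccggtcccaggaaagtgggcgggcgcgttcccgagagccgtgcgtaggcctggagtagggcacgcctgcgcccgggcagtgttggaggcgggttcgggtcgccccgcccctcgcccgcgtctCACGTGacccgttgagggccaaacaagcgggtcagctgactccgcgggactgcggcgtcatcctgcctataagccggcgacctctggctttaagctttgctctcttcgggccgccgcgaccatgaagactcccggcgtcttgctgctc
Ctsl: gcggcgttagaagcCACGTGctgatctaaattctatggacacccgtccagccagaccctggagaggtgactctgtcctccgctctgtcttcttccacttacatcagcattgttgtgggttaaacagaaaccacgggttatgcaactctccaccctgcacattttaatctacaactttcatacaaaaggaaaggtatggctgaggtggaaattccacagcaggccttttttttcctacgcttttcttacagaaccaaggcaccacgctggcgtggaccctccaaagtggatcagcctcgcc
Lgmn: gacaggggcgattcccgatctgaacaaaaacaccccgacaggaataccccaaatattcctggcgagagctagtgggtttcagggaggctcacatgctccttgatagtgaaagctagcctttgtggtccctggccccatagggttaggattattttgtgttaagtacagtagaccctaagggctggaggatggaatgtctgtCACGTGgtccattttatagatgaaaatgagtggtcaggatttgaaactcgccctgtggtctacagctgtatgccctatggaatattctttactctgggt
The matches began at -12 and 6 in Ctsa, at -245 and -98 in Ctsd, at -236 in Ctsl and at -49 in Lgmn, counted from the transcript start as 1. Ctsa and Lgmn each had another window without a match, at chr2:164832622-164832921 and chr12:102439679-102439978. In both genes that window contains the annotated start of the gene, and the window shown lies downstream of it. A match describes letters only, and no binding was measured.

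Of 25806 barcodes, 25009 cells passed the authors' filters, with 1449 to 5736 cells and 13785920 to 35711533 UMIs per library. The median cell held 3770 and 4258 UMIs in the L libraries and 5826 to 9624 in the others. Of the barcodes, 791 occurred in more than 1 library, and 0 of them were among the cells that passed. Sums with at least 20 cells numbered 51, in 27 groups of 1 stage and cluster, 3 of which rest on 1 mouse. The authors clustered the cells on these same counts, so levels of clusters are a description without a test.

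Across clusters the 10 genes fell into a few patterns. Of the 10 genes 8 had their highest mean in C17, a cluster outside the epithelial clusters C1 to C15 whose sums held the 10 myeloid markers at 15263 to 39213 CPM together, in spite of the sort against CD45. Ctss marked C17 almost alone: it was at 3503 and 3865 CPM in the G mice and 2936 and 4346 CPM in the L mice, and no other sum exceeded 70.6 CPM. In the G mice 100% and 97.7% of C17 cells held a Ctss UMI (median depth 6496 and 5562 UMIs), against 2.65% and 3.08% of the alveolar cells of C8 (10901 and 8677 UMIs). With every cell thinned to 1700 UMIs these shares were 95.2% and 94.6% against 0.450% and 0.633%, and no cell was too shallow. In the L mice the thinned share was 1.95% and 1.39% in the basal cells of C14 and 1.92% and 2.39% in the luminal cells of C11. These clusters overlapped, and at such shares a UMI does not show that a cell expresses Ctss.

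Ctsk had a second home, C18, whose sums held the 6 fibroblast markers at 14015 to 53314 CPM. There it was at 390.4 to 556 CPM in NP, 797 to 904 CPM in G, 357 to 420.5 CPM in L, and 986 CPM in the 1 PI mouse with enough cells. In no epithelial sum did Ctsk exceed 20.2 CPM. The C18 sums held 24 to 284 cells, and the G mice did not overlap those of NP or L.

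Among epithelial clusters Ctsl was highest in basal cells in the NP, G and PI mice, but not in the L mice. Its highest group was C12 in the PI mice, at 1550.1 and 1685 CPM, followed by C12 in the NP mice at 1256 and 959.8 CPM. The other basal clusters followed with 752 and 843 CPM in C13 (G) and 288 and 329.7 CPM in C14 (L). C15 (L), the Procr positive basal cells of the authors, held 89.0 to 123 CPM. The paper could not exclude that C15 is non-epithelial, since its cells held some markers of pericytes. None of these ranges overlapped the next in this basal order. C18 reached similar levels, with 897 and 1223 CPM in the G mice, and overlapped C12 of the NP mice. Outside basal cells the highest epithelial group was the L cluster C9 at 332 and 669 CPM, above C14 and C15 of the same stage, a spread between 2 mice that took in the PI luminal progenitors of C7 (551 and 415 CPM).

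Ctsh was highest in progenitors of the secretory line among epithelial clusters. Within the epithelium it was at 427 and 442 CPM in the alveolar progenitors of C10 (G) and 423 and 427 CPM in those of C11 (L), at 363 and 407 CPM in C7 (PI) and at 293 and 294 CPM in C6 (NP). Hormone-sensing progenitors were lower, at 225 to 271 CPM in C1 (PI) and 144 to 155 CPM in C2 (NP). C8 (G), with 250.3 to 297 CPM, overlapped both C6 and C1. Basal clusters were low, and C14 was at 17.9 and 20.2 CPM. A single sum of 22 cells, C6 of the first PI mouse, stood at 448 CPM.

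Ctsc, which activates serine proteases of granules, split the luminal clusters. It was at 80.4 and 90.3 CPM in C9 (L) and 81.7 and 87.2 CPM in C7 (PI), ranges that overlap, and at 26.3 and 31.9 CPM in C6 (NP). The differentiated hormone-sensing cells of C3 (PI) held 6.24 and 6.30 CPM and those of C4 (NP) 6.20 and 9.39 CPM. Ctsd varied less, from 87.8 and 101.5 CPM in C14 (L) to 362 and 434 CPM in C7 (PI) within the epithelium, and C7, C9 and C11 overlapped. Ctsa, Ctsb, Ctsz and Lgmn were at 418, 2409 to 2766, 2841 to 3031 and 941 to 1039 CPM in C17 of the G mice, where Ctsa came to 418 CPM in both. Their highest epithelial means among groups of 2 mice were in C9 (L) for Ctsa at 38.4 and 53.9 CPM, C7 (PI) for Ctsb at 454 and 562 CPM, and C3 (PI) for Ctsz at 187 and 201 CPM and for Lgmn at 56.8 and 73.8 CPM.

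**Figure D1:**
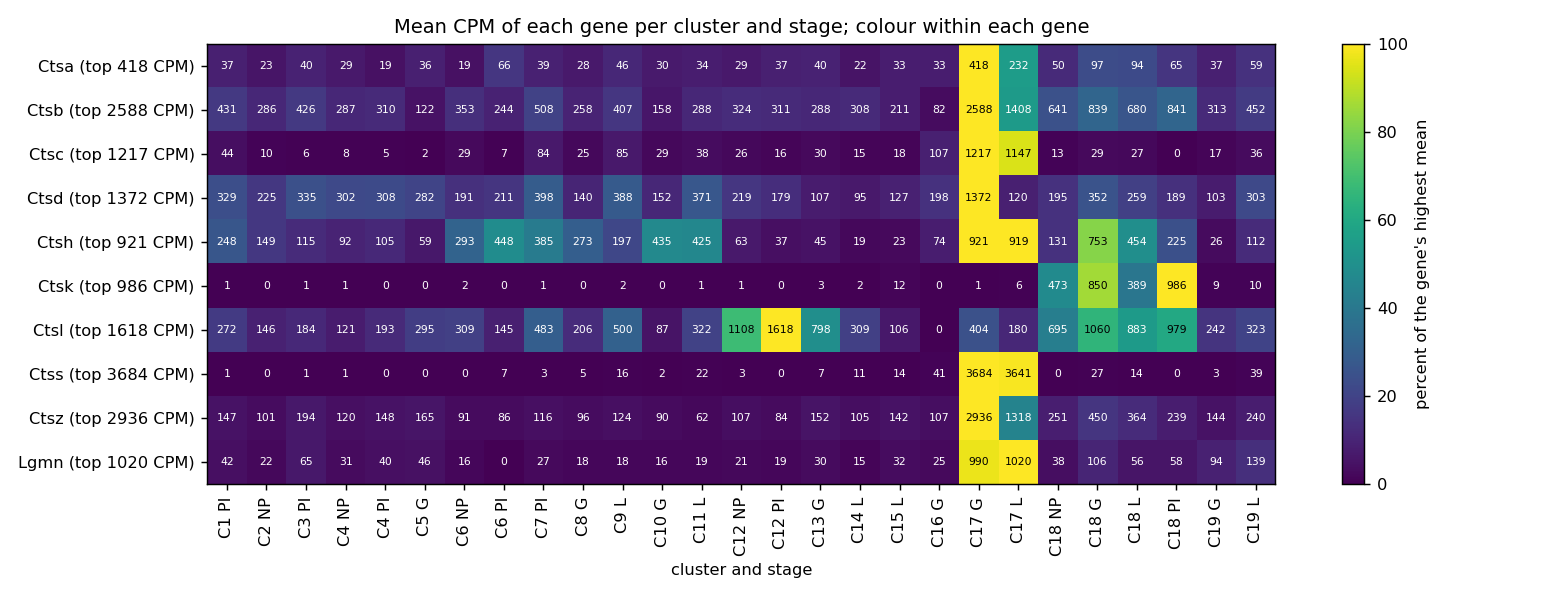
Mean CPM of the 10 genes (rows) in each cluster and stage (columns) with at least 20 cells in a mouse; numbers are CPM and the colour is the percent of the highest mean of that gene, so colours compare clusters within a row only. Ctss is confined to C17 on this scale, Ctsk to C18, and Ctsl peaks in the basal cluster C12 of the PI mice (1618 CPM).

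Within C17 the G and L mice differed for some proteases and not for others. Ctsd was at 1271 and 1474 CPM in the G mice and at 103 and 136 CPM in the L mice, so the groups lay far apart. Ctsa (418 and 418 against 190 and 274 CPM), Ctsb (2409 and 2766 against 1079 and 1737 CPM), Ctsz (2841 and 3031 against 1067 and 1570.0 CPM) and Ctsl (412 and 395 against 195 and 165 CPM) were also lower in both L mice. Ctss, Ctsc, Ctsh and Lgmn overlapped between the stages. The myeloid markers did not move together. Lyz2, the lysozyme of macrophages, was at 15079 and 20221 CPM in G and 1476 and 2832 CPM in L. Tyrobp, C1qa and C1qc were also lower in both L mice. Fcer1g (1176 and 1393 against 1781 and 1865 CPM) and Adgre1 (95.2 and 114 against 119 and 130 CPM) were higher in both L mice. Csf1r, the receptor of the macrophage growth factor, overlapped, at 308 and 442 CPM in G and 225 and 356 CPM in L. Ptprc, C1qb and Laptm5 overlapped too. Thinned to 1700 UMIs, 70.3% and 77.0% of C17 cells in the G mice and 15.2% and 18.4% in the L mice held a Ctsd UMI. This difference was picked out after its values were seen and was not tested, and whether C17 holds the same kinds of myeloid cells at both stages was not tested either. The summed genes of dissociation stress were at 6751 and 6372 CPM in the G sums and 24270.0 and 19922 CPM in the L sums of C17.

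**Figure D2:**
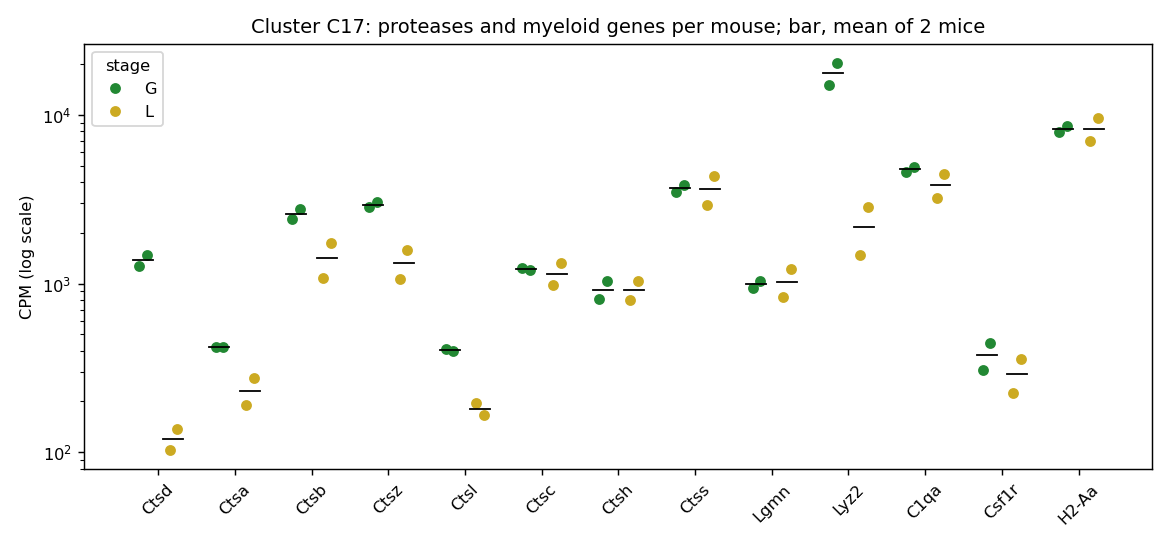
CPM on a log scale of 9 proteases and 4 other genes in C17 of the 2 G and 2 L mice; points are mice and bars are means of 2 mice. Ctsd and Lyz2 lie well apart between the stages, while Ctss, Ctsc, Ctsh and Lgmn overlap.

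Luminal progenitors were compared between NP and PI mice in clusters C6 and C7, where nearly all NP cells lie in C6 and nearly all PI cells in C7. In every comparison of NP with PI a past pregnancy, the recent involution and any difference in age cannot be told apart. A single time after weaning also cannot show whether a change lasts. All 8 proteases that passed the filter on low counts were higher in the PI mice by the quasi-likelihood test of edgeR, with p-values adjusted after Benjamini and Hochberg over 10766 genes, against 13.9% of all genes tested called higher. Ctsc was at 26.3 and 32.3 CPM in NP and 85.6 and 81.5 CPM in PI. The mice of the stages lay far apart, with a log2 fold change of 1.61 (SE 0.16, adjusted p = 4.18e-05 by edgeR). Ctsd was at 186.5 and 197 CPM in NP and 429 and 361 CPM in PI, again without overlap (log2 fold change 1.12, SE 0.13, adjusted p = 0.000152 by edgeR). Ctsa was at 22.3 and 16.6 CPM in NP and 43.9 and 34.8 CPM in PI (log2 fold change 1.08, SE 0.19, adjusted p = 0.00209 by edgeR).

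The other 5 rose less, and in each both PI mice lay above both NP mice. The fitted log2 fold changes were 0.80 for Lgmn, 0.71 for Ctsl, 0.60 for Ctsb, 0.48 for Ctsh and 0.42 for Ctsz, with adjusted p from 0.00733 to 0.0294 by edgeR. The median over the 8 was 0.75, against -0.02 over all genes tested. Ctsk and Ctss did not pass the filter, and Ctss was at 0.302 and 0 CPM in NP and 3.71 and 1.75 CPM in PI. At the same depth of 1700 UMIs, 4.36% and 4.75% of C6 cells in the NP mice and 12.6% and 12.98% of C7 cells in the PI mice held a Ctsc UMI.

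Without the first NP mouse 4 of the 8 calls were lost (Ctsb, Ctsh, Ctsz and Lgmn), without the second 3 (Ctsh, Ctsl and Ctsz) and without the first PI mouse 2 (Ctsh and Ctsz). Ctsa, Ctsc and Ctsd kept their calls in each of these fits, DESeq2 did not call Ctsz (adjusted p = 0.0997) or Lgmn (0.0725), and none of the 8 passed a test against a fold change of 2 at a false discovery rate of 0.01. The 10 myeloid markers together were at 3.92 and 14.5 CPM in NP and 12.3 and 30.2 CPM in PI, with Adgre1 at 0 in all 4 mice, and the 8 milk protein genes at 770.2 and 1445 CPM in NP and 13392 and 14585 CPM in PI. The luminal progenitor markers Aldh1a3, Cd14 and Kit together were at 2390 and 2117 CPM in NP and 1326 and 917 CPM in PI, and their part in the result was not tested. All 8 genes were still called after cells with a UMI of a myeloid marker, or the milk protein genes, had been left out.

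Hormone-sensing progenitors, C2 in the NP mice and C1 in the PI mice, were compared in the same way. All 8 proteases that passed the filter were higher in PI, against 9.58% of all 10692 genes tested, with a median log2 fold change of 0.68 against -0.02 over all genes. Ctsc was at 12.4 and 8.09 CPM in NP and 43.6 and 44.0 CPM in PI, with a log2 fold change of 2.06 (SE 0.20, adjusted p = 3.39e-05 by edgeR). The remaining fold changes on the log2 scale ran from 0.53 for Ctsz to 0.89 for Lgmn, and both PI mice were above both NP mice for all 8. The 7 smaller calls depended on the NP mice, since 3 of 8 calls were left without the first NP mouse and 1, Ctsc, without the second. DESeq2 did not call Ctsa (adjusted p = 0.153) or Ctsz (0.0756). The NP sums held 266 and 169 cells and the PI sums 112 and 387. The myeloid markers were at 8.50 and 2.89 CPM in NP and 8.71 and 11.5 CPM in PI, and the milk protein genes at 198 and 336 CPM in NP and 6634 and 7308 CPM in PI. All 8 were still called without the milk protein genes, and all 8 without cells holding a myeloid marker UMI.

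Differentiated hormone-sensing cells (C4, which held most NP cells, and C3, most PI cells) were compared in the same way, and Ctsc was not called. It was at 9.40 and 6.18 CPM in NP and 6.03 and 6.29 CPM in PI, and the mice overlapped (log2 fold change -0.36, SE 0.25, adjusted p = 0.385 by edgeR). Ctsd was at 305 and 299.6 CPM in NP and 272 and 394 CPM in PI and did not pass either (log2 fold change 0.09, SE 0.20, adjusted p = 0.805 by edgeR). Of the 9 proteases tested 2 were higher, against 7.64% of all 11994 genes. Lgmn rose from 38.0 and 24.2 CPM to 70.7 and 56.4 CPM (log2 fold change 0.96, SE 0.19, adjusted p = 0.00629 by edgeR), and Ctsz from 136 and 106 CPM to 182 and 199 CPM (log2 fold change 0.61, SE 0.16, adjusted p = 0.0281 by edgeR). The Ctsz call was lost without the second NP mouse (adjusted p = 0.278 by edgeR). Ctsl passed without the first NP mouse (adjusted p = 0.00766 by edgeR) or the second PI mouse (0.00489), and without the filter on low counts (0.0247). Ctsb passed without the first PI mouse (0.0370) and by DESeq2 (0.0434).

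The difference between the changes was tested in 1 fit over the luminal sums of the 4 mice with the mouse as a term. The change from NP to PI was larger in luminal progenitors than in differentiated hormone-sensing cells for 3 of 8 proteases, against 10.4% of 11743 genes. The difference on the log2 scale was 1.94 for Ctsc (SE 0.26, adjusted p = 1.52e-05), 1.03 for Ctsd (SE 0.19, adjusted p = 0.000706) and 0.71 for Ctsa (SE 0.19, adjusted p = 0.0117), all by edgeR. Ctsa fell short without either NP mouse (adjusted p = 0.0701 and 0.0989) and by DESeq2 (0.103). For the other 5 the estimated differences lay between -0.20 and 0.20 with SEs of 0.13 to 0.23, so differences of that size cannot be told from 0 here.

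**Figure D3:**
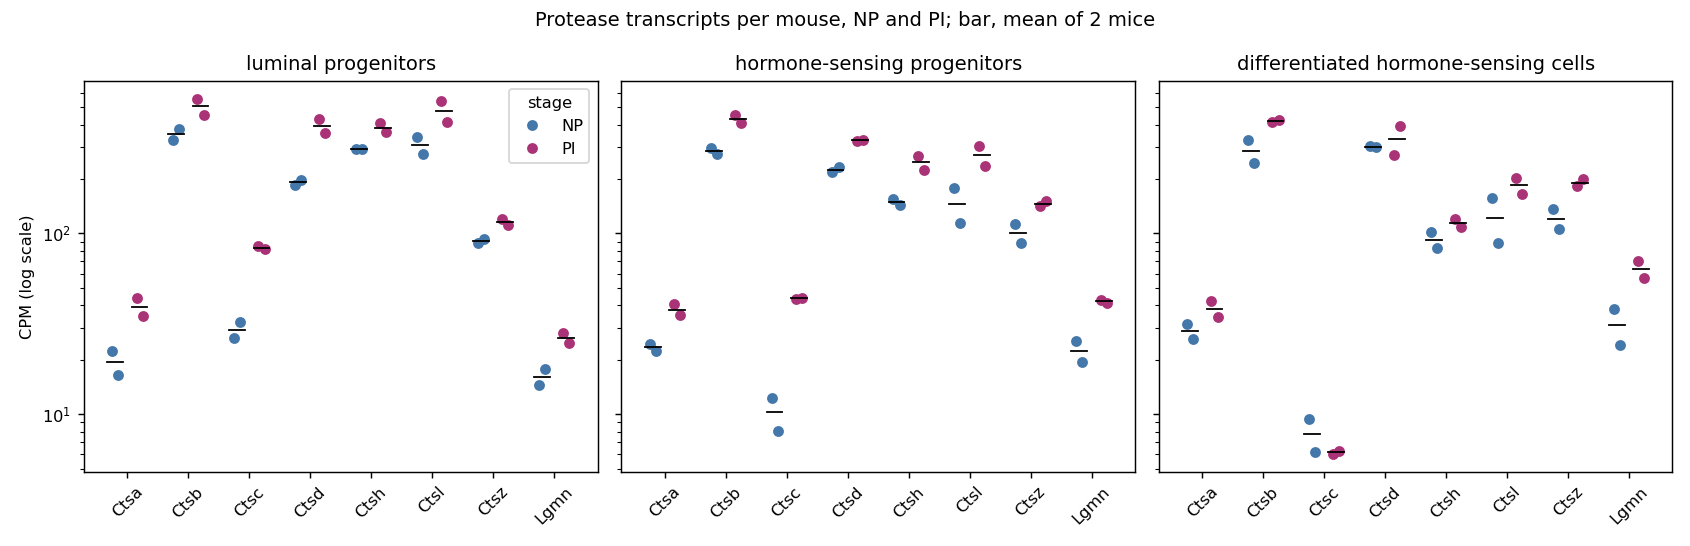
CPM on a log scale of 8 proteases in 3 luminal cell types, for the 2 NP and 2 PI mice; points are mice and bars are means of 2 mice. Ctsc rises from 26.3 and 32.3 to 85.6 and 81.5 CPM in luminal progenitors and overlaps between stages in differentiated hormone-sensing cells.

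Other lysosomal genes were counted from lists of proteases, hydrolases, membrane proteins, proton pump subunits and sorting genes. In luminal progenitors 28 of 81 were higher and 1 lower in PI (median log2 fold change 0.30), in hormone-sensing progenitors 19 of 83 were higher and 0 lower (0.25), and in differentiated hormone-sensing cells 15 of 87 were higher and 0 lower (0.29). The shares of all genes called higher in these types were 13.9%, 9.58% and 7.64%, against which the counts of the lists below are also to be read. Lipa, the acid lipase of the lysosome, had the largest change of the hydrolases in luminal progenitors, from 12.1 and 14.9 to 146 and 134 CPM (log2 fold change 3.47, SE 0.17), and in hormone-sensing progenitors from 5.60 and 6.07 to 73.8 and 71.0 CPM (3.63, SE 0.18). Hydrolases were higher for 14 of 30, 7 of 30 and 3 of 33 in these types, in the same order. Of the proton pump subunits 7 of 15, 8 of 15 and 7 of 16 were higher.

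Of the 11 inhibitors of cathepsins on the list 4 were tested in each type, and 2 were higher and 1 lower in luminal progenitors, 2 higher in hormone-sensing progenitors and 1 higher in differentiated hormone-sensing cells. Cst3 (cystatin C, secreted) was higher in PI in luminal progenitors (0.77, SE 0.19), hormone-sensing progenitors (1.39, SE 0.18) and differentiated hormone-sensing cells (0.89, SE 0.19). Cst6, a further cystatin, fell in luminal progenitors from 8.45 and 7.45 to 2.25 and 1.87 CPM. Of the list of lysosomal transcription factors and Stat3, 2 of 6 tested were higher in luminal progenitors. In hormone-sensing progenitors 0 of 5 were higher and 1 lower, and in differentiated hormone-sensing cells 0 of 6 were higher and 0 lower. Stat3, a transcription factor of involution, was higher in luminal progenitors (0.48, SE 0.13). MHC class II genes, whose products are loaded with peptides that cathepsins make, were higher for 5 of 7 tested in luminal progenitors. In each of the other types 2 of 7 were higher, all past the same edgeR threshold of 0.05. The myeloid cells of C17 held H2-Aa, a gene of this list, at 7006 to 9569 CPM. The part of myeloid RNA in these MHC class II counts was not tested.

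Basal cells were present at all 4 stages, as C12 in NP and PI, C13 in G and C14 in L, and the 3 comparisons share the NP mice. In the G mice 3 of 10 proteases, Ctss among them, were higher, against 21% of all 11870 genes, and 2 were lower, against 18.9%. In the L mice 1, Ctss, was higher, against 31.7%, and 4 were lower, against 30.5%. With only 10 genes these shares are coarse, and single genes are described. TMM normalisation moved the median log2 difference of all genes by 0.20 in L and by -0.11 in PI against that in CPM, and fold changes are relative to it.

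Ctsl stood at 1256 and 968 CPM in NP, 752 and 844 CPM in G, 289 and 329.9 CPM in L and 1652 and 1660.1 CPM in PI. No stage overlapped another. The log2 fold change was -0.40 in G (SE 0.15, adjusted p = 0.0369) and -1.64 in L (SE 0.15, adjusted p = 7.54e-08), both by edgeR. In PI it was 0.42 (SE 0.15, adjusted p = 0.138 by edgeR), and DESeq2 called it (adjusted p = 0.0145). The G call was lost without the first NP mouse (adjusted p = 0.387 by edgeR) and without either G mouse (0.225 and 0.0647), and DESeq2 did not call it (0.0589).

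Ctsd was at 230.3 and 207 CPM in NP, 111 and 103 CPM in G, 87.8 and 101.5 CPM in L and 166 and 195 CPM in PI, and both G and L mice lay below all NP and PI mice. It fell by 0.96 in G (SE 0.14, adjusted p = 6.16e-05 by edgeR) and by 1.00 in L (SE 0.14, adjusted p = 7.66e-06 by edgeR) on the log2 scale. Ctsh was at 71.0 and 54.6 CPM in NP and 20.3 and 17.9 CPM in L (log2 fold change -1.53, SE 0.19, adjusted p = 3.59e-06 by edgeR). In G its values were 39.0 and 53.4 CPM and it was not called (adjusted p = 0.139 by edgeR). Ctsc was lower in L, at 15.6 and 14.7 CPM against 28.7 and 23.2 CPM (log2 fold change -0.59, SE 0.18, adjusted p = 0.00981 by edgeR), a call lost without the first NP mouse (0.194), without the second L mouse (0.0536) and by DESeq2 (0.0712).

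Ctsa and Ctsz were higher in G, and edgeR called neither in L. Ctsz was at 114 and 101 CPM in NP and 156 and 148 CPM in G (log2 fold change 0.57, SE 0.13, adjusted p = 0.00287 by edgeR), and at 102 and 108 CPM in L, where DESeq2 called it (log2 fold change 0.29, adjusted p = 0.0425). Ctsa was at 28.7 and 29.1 CPM in NP and 40.2 and 39.3 CPM in G (log2 fold change 0.54, SE 0.17, adjusted p = 0.0197 by edgeR), and at 22.1 CPM in both L mice. The Ctsa call was lost without either NP mouse (adjusted p = 0.162 and 0.0655 by edgeR) and without the first G mouse (0.0779). Ctsb was at 254 to 387 CPM over all 8 mice and was called at no stage.

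Ctss was at 1.65 and 3.64 CPM in NP, 5.53 and 9.20 CPM in G and 11.97 and 9.69 CPM in L, and was called higher in G (log2 fold change 1.71, SE 0.46) and L (2.39, SE 0.41). The G call was lost without the first NP mouse (adjusted p = 0.198 by edgeR) or the second G mouse (0.0856). The myeloid markers together were at 11.99 and 68.3 CPM in NP, 86.0 and 79.2 CPM in G and 82.3 and 68.8 CPM in L, with all 10 detected in each G and L mouse. Cells holding a myeloid marker UMI were then left out. Ctss was at 0 and 0.477 CPM in NP, 1.51 and 3.25 CPM in G and 8.31 and 7.90 CPM in L. It was still called in G (adjusted p = 0.00824 by edgeR) and L (7.83e-06). Even in the full sums Ctss had only 7 and 8 UMIs in the NP mice. It passed the filter largely through the G and L mice, so these calls are no support for a rise of the proteases. Fewer cells of a type and less RNA per cell cannot be told apart from such sums.

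The PI basal sums held 28 and 59 cells. None of the 10 genes passed there with edgeR, with 2 at an unadjusted p under 0.05 (Ctsl and Ctsz), 1 called by DESeq2 and 4.47% of all genes called in either direction. Ctsk and Ctss had 0 UMIs in both PI mice, which allows levels of up to 26.2 and 9.60 CPM at a limit of 3 UMIs per sum, so a loss was not detectable at this depth.

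In the basal sums the luminal markers Krt8, Krt18 and Krt19 together were at 2804 to 4289 CPM in NP, 855 to 883 CPM in G, 1395 to 2113 CPM in L and 1906 to 5374 CPM in PI. The 4 hormone-sensing markers were at 278 to 304 CPM in NP, 15.3 to 17.9 CPM in G and 26.5 to 32.9 CPM in L. Both sets were thus lower in G and in L than in NP. In the small PI sums the hormone-sensing markers were at 8.74 and 768 CPM, on both sides of the NP mice. The 6 fibroblast markers were at 177 to 264 CPM in NP, 672 to 901 CPM in G, 510 to 649 CPM in L and 69.9 to 166 CPM in PI. They were thus higher than in NP in both G and L. C18 in the G mice held 394 to 505 CPM of Ctsz and 95.1 to 99.7 CPM of Ctsa. The part of luminal or fibroblast RNA in these differences was not tested.

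In the same basal cells the genes of dissociation stress summed to 3440 to 3850 CPM in NP, 5178 to 8047 CPM in G, 26583 to 32275 CPM in L and 5018 to 7044 CPM in PI, and their part in these differences was not tested. Of 83 lysosomal genes 21 were higher and 4 lower in G and 35 higher and 10 lower in L, against 21% and 18.9% of all genes in G and 31.7% and 30.5% in L. They included Lipa (2.56 in G and 2.32 in L on the log2 scale) and the cholesterol transporter Npc1 (1.61 and 1.35). The intracellular inhibitor Cstb fell from 1057 and 777 CPM in NP to 328 and 354 CPM in L. Serpinb6b, a serpin of the cytosol, rose from 8.93 and 8.19 to 54.7 and 52.2 CPM.

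**Figure D4:**
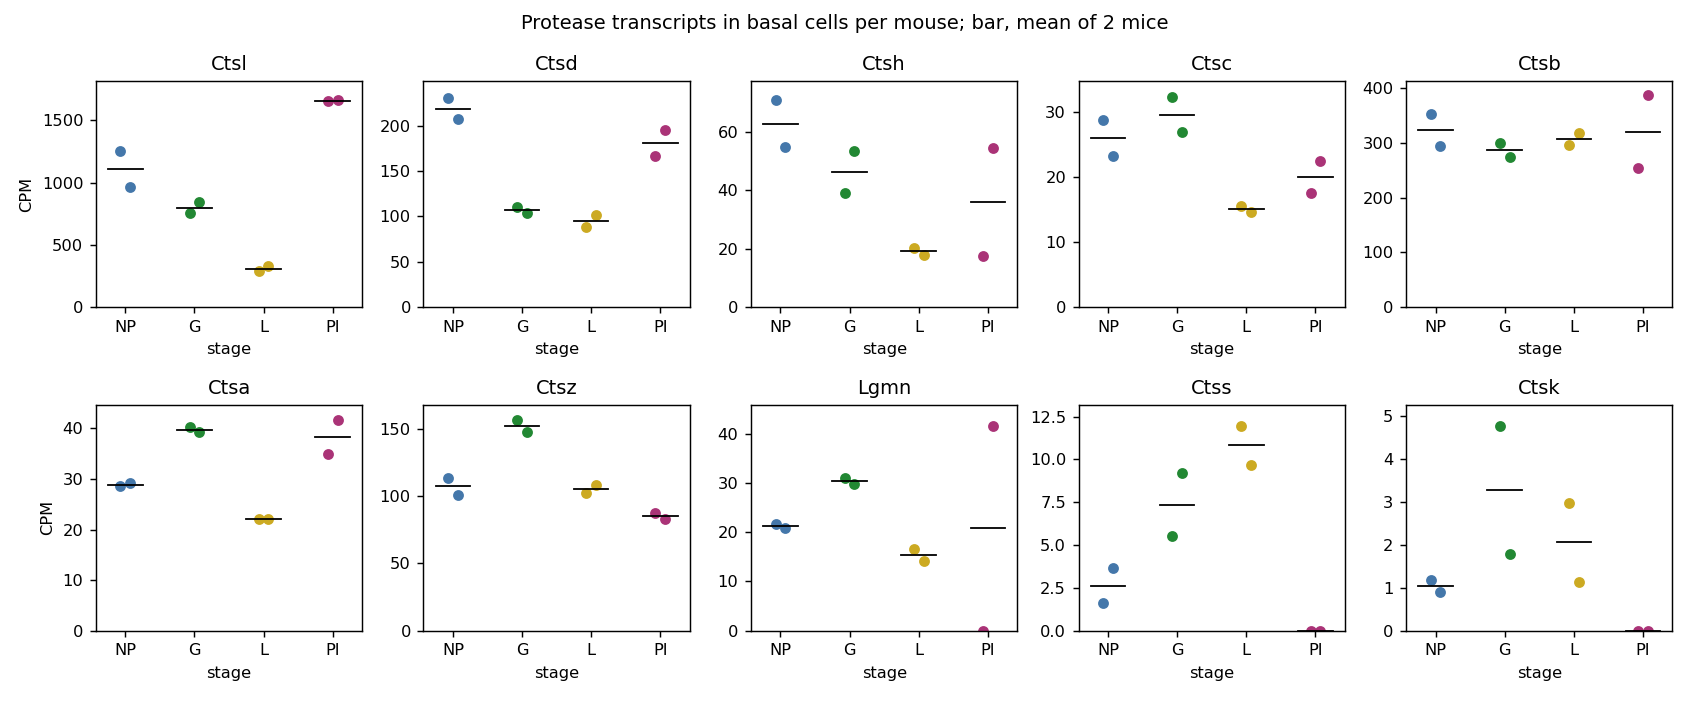
CPM of the 10 proteases in basal cells of the 2 mice at each stage, from 0 on a linear axis that differs between genes; points are mice and bars are means of 2 mice. Ctsl is lowest in L (289 and 329.9 CPM) and highest in PI (1652 and 1660.1 CPM), and Ctsd is lower in G and L than in NP and PI.

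Secretory cells were compared between gestation and lactation. Differentiated alveolar cells lay in C8 in the G mice (1926 and 1818 cells) and in C9, with 1 C8 cell each, in the L mice (43 and 48 cells). Milk protein genes took 57393 to 96653 CPM of the G sums and 416266 to 443712 CPM of the L sums, so levels are given in CPM of all other genes. TMM normalisation raised the median log2 difference of all genes by 0.90 over that in CPM, and the fold changes below are relative to it.

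In differentiated alveolar cells 7 of the 9 proteases that passed the filter were higher in L, against 9.54% of 11860 genes, 6 of them besides Ctss, with a median log2 fold change of 1.64 against -0.14 over all genes. Ctsc was at 28.4 and 25.8 CPM in G and 143 and 154 CPM in L (log2 fold change 2.67, SE 0.19, adjusted p = 1.08e-06 by edgeR). Ctsd was at 158 and 147 CPM in G and 613 and 738 CPM in L (2.37, SE 0.20, adjusted p = 3.73e-06 by edgeR). Ctsl was at 225 and 222 CPM in G and 591 and 1141 CPM in L (2.20, SE 0.28, adjusted p = 0.000170 by edgeR), a wide spread between the L mice but without overlap.

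Ctsa, Ctsb and Ctsz rose by 1.64, 1.57 and 1.30 on the log2 scale (SE 0.24, 0.21 and 0.19), each without overlap between the stages. Ctsh was at 277 and 315 CPM in G and 317.5 and 375 CPM in L, and did not pass (adjusted p = 0.124 by edgeR). In CPM of all UMIs its direction was the opposite, 250.3 and 297 against 177 and 219. Lgmn was at 18.9 and 19.7 CPM in G and 46.7 and 18.4 CPM in L, so the L mice lay on both sides of the G mice. It passed without the second L mouse (adjusted p = 0.0303 by edgeR), and Ctsh without the first (0.0252).

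Ctss was at 3.60 and 7.20 CPM in G and 46.7 and 13.8 CPM in L, from 15 and 6 UMIs in L, and was called (2.60, SE 0.63, adjusted p = 0.0118 by edgeR). It lost its call without the first L mouse (log2 fold change 1.64, adjusted p = 0.257 by edgeR) or the second G mouse (adjusted p = 0.0894). The myeloid markers were at 40.0 and 69.5 CPM of all UMIs in G and 159 and 60.4 CPM in L, and the basal markers Krt5, Krt14 and Acta2 at 111 and 107 CPM in G and 2007 and 878 CPM in L. Their part in the rise of Ctss, or of Ctsl, was not tested. After cells with a myeloid marker UMI were left out, 20 and 23 L cells were kept. Ctss was then at 1.63 and 2.30 CPM of all UMIs in G and 15.1 and 6.67 CPM in L. It was still called (3.11, adjusted p = 0.0199 by edgeR), but on fewer L UMIs than the 15 and 6 above, so this call is weak.

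Alveolar progenitors (C10 in G with 89 and 126 cells, C11 in L with 145 and 91 cells together with the few C10 cells) were compared in the same way, and a difference from the differentiated cells was not tested. TMM moved the median here by 0.28. In these cells 4 of the 9 proteases that passed the filter were higher in L, against 15.7% of 8446 genes, 3 of them besides Ctss, with a median log2 fold change of 0.73 against -0.03 over all genes. Ctsl was at 74.5 and 101 CPM in G and 364 and 311 CPM in L (2.13, SE 0.19, adjusted p = 4.97e-05 by edgeR). Ctsd was at 138 and 167 CPM in G and 369.6 and 426 CPM in L (1.57, SE 0.16, adjusted p = 0.000151 by edgeR), and Ctsb at 164 and 153 CPM in G and 332 and 273 CPM in L (1.13, SE 0.16, adjusted p = 0.000889 by edgeR).

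Ctsc was at 28.4 and 28.8 CPM in G and 45.7 and 36.6 CPM in L and fell just short (0.73, SE 0.25, adjusted p = 0.0532 by edgeR). It passed without the second L mouse (0.0187), as did Ctsa (0.0325), and Ctsz passed as lower without the first L mouse (log2 fold change -0.80, adjusted p = 0.0254 by edgeR). Ctsh was at 444 and 428 CPM in G and 445 and 449 CPM in L and did not pass. Ctss had 2 and 4 UMIs in the G mice and 32 and 12 in the L mice (3.62, SE 0.55), so it passed the filter largely through the L mice and its call is no support for a rise of the 9. Left without cells holding a myeloid marker UMI it was at 2.54 and 2.70 CPM in G and 3.32 and 5.395 CPM in L and was too low to be tested. The myeloid markers were at 23.7 and 24.95 CPM in G and 125 and 58.7 CPM in L, and the basal markers at 126 and 197 CPM in G and 4495 and 3304 CPM in L. The genes of dissociation stress were at 13810 and 12627 CPM in G and 25896 and 20547 CPM in L here, and at 9387 and 7406 CPM in G and 9712 and 10472 CPM in L in the differentiated cells, and their part was not tested.

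Many subunits of the pump that acidifies the lysosome were also higher in secretory cells of L mice. Of them 7 of 16 in differentiated alveolar cells and 10 of 15 in alveolar progenitors were higher in L and 0 lower, against 9.54% and 15.7% of all genes called higher, among them Atp6v1e1 (1.39, SE 0.17, and 1.75, SE 0.15, on the log2 scale). Hydrolases were higher for 10 of 33 and 9 of 23, with Lipa at 2.29 (SE 0.19) and 4.43 (SE 0.27) and the ceramidase Asah1 at 2.22 (SE 0.21) and 2.39 (SE 0.25). Cst3 rose by 2.84 (SE 0.19) and 3.31 (SE 0.28). Of the list of lysosomal transcription factors and Stat3, only 1 of 6 in differentiated cells and 1 of 5 in progenitors were higher, and 0 lower. The median log2 fold changes of that list were -0.08 and -0.30. Socs3, the feedback inhibitor of Stat3 signalling, rose by 3.65 (SE 0.21) and 3.93 (SE 0.18). Of all 87 lysosomal genes tested in differentiated cells 23 were higher and 1 lower, and of 67 in progenitors 23 were higher and 2 lower, all at an adjusted p under 0.05 by edgeR.

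**Figure D5:**
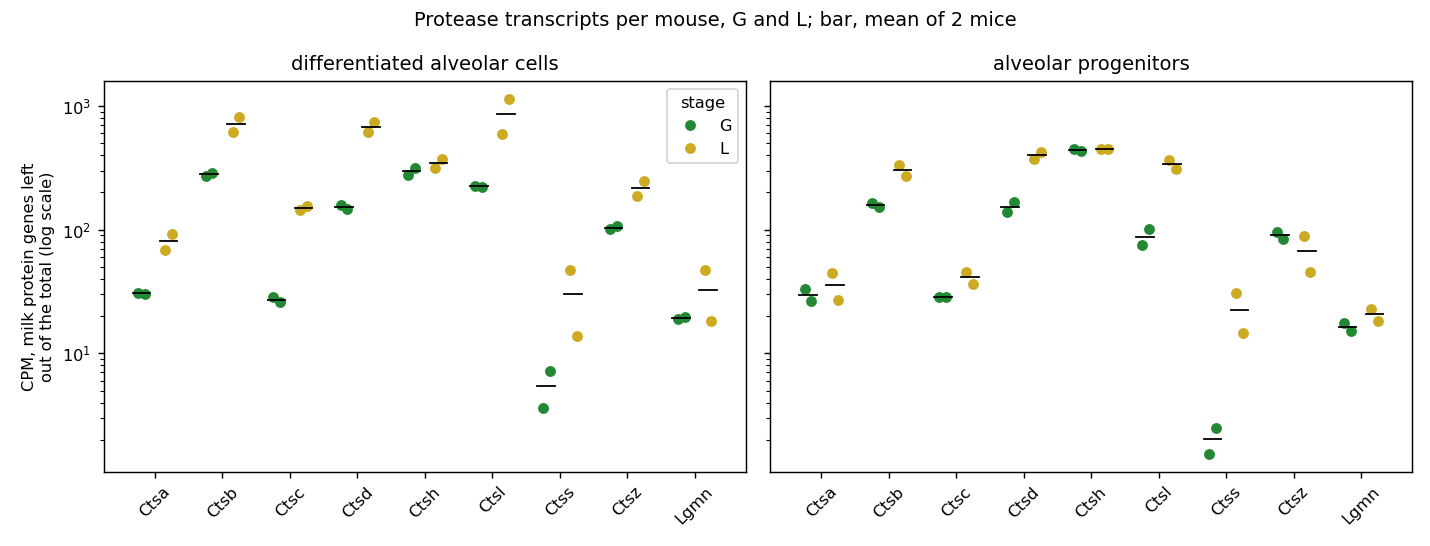
Levels of 9 proteases in CPM of genes other than the milk protein genes, on a log scale, in 2 alveolar cell types of the 2 G and 2 L mice; points are mice and bars are means of 2 mice. Ctsc, Ctsd and Ctsl are higher in both L mice of differentiated cells, while Ctsh changes little in progenitors.

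Genes with a like pattern were sought over the sums of mouse and cluster, on log2(CPM + 1), among 11273 genes with at least 20 CPM in 1 sum. These sums share mice, depth and cell type, so the correlations are descriptions. Over all 51 sums Ctss was most like C1qc (Pearson's r = 0.94) and C1qb (0.94), complement genes of macrophages, and Rgs1 (0.94). Ctsk was most like Lama2, Mfap5 and Col5a3 (0.95 each), genes of the connective tissue matrix. Ctsz and Ctsa were each the nearest to the other (0.89), and Ctsz was also the nearest to Ctsb (0.82) and Lgmn (0.84). Ctsc was nearest to Cd74 (0.85), the invariant chain, with Bcl2a1b (0.83) and Ctss (0.82) next. Over the 35 sums of C1 to C15 alone the orders changed: Ctsh was nearest to Ehf (0.95), Kcnk5 (0.94) and Sowahb (0.92), Ctsd to Aqp5 (0.84), Atp6v1e1 (0.81) and Scnn1b (0.80), Ctsl to Cda (0.85), Dnajb9 (0.83) and Cotl1 (0.80), and Lgmn to Hsd17b4 (0.92), Plrg1 (0.89) and Fam160b2 (0.88). Ctsc was there nearest to Sfrp2 (0.86), Cp (0.84) and Dab2 (0.82).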

How the data were processed

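The authors made the deposited matrices with Cell Ranger, which aligns reads with STAR, against mm10 (per the labels and the study's methods). The deposited values are raw UMI counts per gene and cell barcode, made by the authors without normalisation. The authors also deposited a table with quality flags and clusters, from which cells that passed and their clusters C1 to C19 were taken; cells of C20, which the authors set aside as doublets (310), and other barcodes were left out, and no doublet caller was run. The table's mitochondrial fraction and UMI totals were deposited by the authors and used only in checks. The totals of 1096 cells were off, the largest gap being 5 UMIs.

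Counts were summed per mouse over the cells of a cluster (at least 20 cells) or cell type. Stages were compared with edgeR 4.0.16 in R 4.3.3: TMM normalisation, filterByExpr (minimum count 10, minimum total 15), the quasi-likelihood test, and Benjamini-Hochberg adjusted p-values over all genes tested, called at 0.05. Basal cells of all stages shared 1 fit, and the comparison of changes had the mouse as a term. The mouse is the replicate. The study fitted edgeR over cells; here the tool was kept and sums per mouse replaced the cells. Members and gene lists were chosen with earlier results of these data known. From each lysosomal list up to 3 genes per direction with the largest change past the test could be named, and for each gene the 3 of nearest pattern. Single genes of C17 were chosen after their values were seen. The fits were tested on simulated data with a dispersion of 0.05, above the 0.00488 to 0.0171 of the fits, so the shares need not hold for these data. Changes were put only into genes with enough expected counts in the smallest sum of a fit. The shares therefore do not cover genes of lower counts, among them most of the 10 proteases in the basal fit. Of changes of 1 on the log2 scale 24.4% to 35.4% were recovered, but 6.19% in the comparison of changes. Of changes of 2 these shares were 96.5% to 100% and 65%. False calls made up 0% to 5.63% of all calls. A gene that was not called may therefore still have changed. Alternatives were DESeq2 1.42.0 (size factors and test), no filter, glmTreat, the replicate block, each mouse left out, and the sums without milk protein genes or without cells holding a myeloid marker UMI. Limits for counts of 0 cover counting error only. Python 3.11.15 with numpy 2.4.6, pandas 2.3.3 and matplotlib 3.10.9 made the tables and plots. The combined matrix was not used.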

Additional observations from a re-analysis of the deposited data

Results flagged for a closer look

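From NP to PI the change was unlike between luminal progenitors and differentiated hormone-sensing cells for 3 proteases, by a test of the difference itself with edgeR's quasi-likelihood test. On the log2 scale the change in progenitors exceeded that in differentiated cells by 1.94 for Ctsc, 1.03 for Ctsd and 0.71 for Ctsa. Both PI progenitor sums were above both NP sums for each of the 3. No group had enough mice for a search for outlying samples.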

How the results depend on the processing

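Of the fold changes of the 10 genes under the alternatives, 843 kept their direction and side of the threshold. A further 77 lost the call, 22 gained it and 18 turned direction. The 77 include calls lost under glmTreat, which asks for a fold change above 2 at a false discovery rate of 0.01. Those losses come from its stricter test, and the cause of the other changes was not tested. Leaving out 1 mouse moved the number of genes past the test to 1704 to 2472 in luminal progenitors, 476 to 1960 in hormone-sensing progenitors, 928 to 2458 in differentiated hormone-sensing cells, 2558 to 3869 (G), 5463 to 6903 (L) and 106 to 375 (PI) in basal cells, 609 to 1890 in differentiated alveolar cells, 1625 to 2538 in alveolar progenitors and 1123 to 2386 for the comparison of changes. The number of the 10 proteases past it was then 4 to 9, 1 to 8, 1 to 3, 2 to 4, 4 to 5, 0 to 0, 6 to 8, 4 to 6 and 2 to 3, in the same order. From all mice the genes past the test were 2892, 1778, 1714, 4739, 7385, 530, 2219, 2368 and 2374. DESeq2's test gave 1590 genes in luminal progenitors, 823 in hormone-sensing progenitors, 1144 in alveolar progenitors and 1082 for the comparison of changes, and it called 1 protease in PI basal cells. Against a fold change of 2 at a false discovery rate of 0.01 (glmTreat) the genes were 231, 127, 121, 479, 2048, 18, 342, 352 and 173 and the proteases 0, 1, 0, 0, 3, 0, 3, 2 and 1. Without the filter 877 genes passed in PI basal cells, and without cells holding a myeloid marker UMI 1443 in differentiated alveolar cells.

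Directions that turned belonged to values that were not called. In differentiated hormone-sensing cells leaving out a mouse moved Ctsd from -0.27 to 0.39 and Ctsk from -6.02 (without PI replicate 2) or -0.28 (without NP replicate 1) to 1.64 on the log2 scale. In basal cells Ctsb ran from -0.20 to 0.020 in G and from -0.57 to 0.12 in PI, where it was 0.024 without NP replicate 1, 0.041 with DESeq2 size factors, 0.040 with DESeq2's test and 0.051 with the 2 stages alone, and Lgmn ran from -10.18 to 0.83 in PI. In alveolar progenitors Ctsz ran from -0.80 to 0.21, and without cells holding a myeloid marker UMI Lgmn was -0.77 in differentiated alveolar cells. In the comparison of changes the ranges were -0.20 to 0.42 for Ctsb (-0.14 without PI replicate 1), -0.11 to 0.39 for Ctsl, -0.39 to 0.042 for Ctsz (0.0094 without PI replicate 2) and -0.65 to 0.29 for Lgmn. The highest mean of Ctsk was 986.08 CPM with at least 10 cells, 390.36 CPM with at least 50 cells and 986.16 CPM without milk protein genes, and that of Ctsa 418.7 CPM without them.

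The labels number the mice of each stage 1 and 2, but equal numbers do not mark a shared animal or day, and the correlation of the deviations was -0.044 to 0.067. With the replicate number as a block the genes past the test were 3294, 1642, 2058, 4680, 7320, 570, 2088 and 2551 and the proteases 8, 8, 3, 6, 5, 0, 7 and 5, in the order above, and without the mouse as a term 1159 genes and 2 proteases passed in the comparison of changes, where the mouse is the same animal. The block added calls for Ctsl in differentiated hormone-sensing cells (adjusted p = 0.0171 by edgeR), Ctsk in G basal cells (0.0409) and Ctsc in alveolar progenitors (0.0479).

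With 2 mice a stage and 2 to 4 residual degrees of freedom the spread rests on moderation across genes. The PI basal sums (28 and 59 cells) and L alveolar sums (43 and 48 cells) are the shallowest. Each fit without 1 mouse assumes that the lone mouse varies like the others.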
